A study of Mus musculus with 17 samples.

Results

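The comparison was of the CEBPB peak lists of 2 ChIP-seq libraries, from macrophages given IFNg together with IL4 and from macrophages given IFNg alone, both for 4 h. The autosomes (1 to 19), X and Y were covered, and peaks over a peak of the input library were to be removed, of which there were 0. This left 6278 peaks with IFNg+IL4 and 21499 with IFNg, together 27777 of the 144384 peaks in the 16 ChIP lists of the series. Peaks with an overlap of 1 bp or more between the lists were called shared, and the rest IFNg+IL4-only or IFNg-only.

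The cells were bone marrow-derived macrophages of wild-type C57BL/6 mice, grown in medium conditioned by L929 cells and used on day 7 of differentiation. Both groups received IFNg at 100 ng/ml, and the IFNg+IL4 group received IL4 at 10 ng/ml as well. Chromatin was precipitated with the same anti-CEBPB antibody. Each group was 1 library, so no difference below has a replicate check and no test was run; intervals are exact Clopper-Pearson 95% intervals of a share and cover counting error only. Depth relative to the input library, recovered from the deposited peak values, was 1.31 with IFNg+IL4, 1.33 with IFNg and 1.46 in the untreated CEBPB library used below.

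CEBPB (C/EBP beta) is a basic leucine zipper protein that binds DNA as a dimer, at a palindrome built around TTGCNNAA, and can also pair with members of the ATF and AP-1 families. In macrophages it is known as a regulator of inflammatory cytokines, acute-phase proteins and complement, and is needed for the induction of Arg1, a marker of alternative activation. IFNg induces IRF1 and drives classical activation. IL4 signals through STAT6 and drives alternative activation.

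The promoters that follow show shared and IFNg-only peaks in sequence. Ptgs2, Il6, C3 and Gbp3 had a shared peak whose summit lay over or next to a C/EBP match, Il1rn a strong shared peak over a start site with no match, and Saa3 an IFNg-only peak. Ptgs2, Il6, Gbp3, Il1rn and Saa3 were chosen after their values were seen. Each window runs from 250 bases before to 50 bases after a RefSeq start site (GRCm38.p6), 5′ to 3′ on the gene's strand, and capitals mark every match to TTGCNNAA on either strand.
Ptgs2, chr1:150099781-150100080, plus strand: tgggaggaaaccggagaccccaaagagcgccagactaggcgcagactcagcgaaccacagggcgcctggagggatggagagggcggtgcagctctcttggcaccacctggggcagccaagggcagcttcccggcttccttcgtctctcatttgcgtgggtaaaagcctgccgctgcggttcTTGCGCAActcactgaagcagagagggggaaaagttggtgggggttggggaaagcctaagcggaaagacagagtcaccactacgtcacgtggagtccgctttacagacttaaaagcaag
Il6, chr5:30012864-30013163, plus strand: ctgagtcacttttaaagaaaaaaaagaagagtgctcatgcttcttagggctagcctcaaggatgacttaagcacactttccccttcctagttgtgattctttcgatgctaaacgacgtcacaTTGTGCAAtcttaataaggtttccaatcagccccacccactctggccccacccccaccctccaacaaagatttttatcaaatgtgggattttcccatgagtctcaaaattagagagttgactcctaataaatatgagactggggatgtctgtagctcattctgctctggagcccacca
C3, chr17:57228087-57228386, minus strand: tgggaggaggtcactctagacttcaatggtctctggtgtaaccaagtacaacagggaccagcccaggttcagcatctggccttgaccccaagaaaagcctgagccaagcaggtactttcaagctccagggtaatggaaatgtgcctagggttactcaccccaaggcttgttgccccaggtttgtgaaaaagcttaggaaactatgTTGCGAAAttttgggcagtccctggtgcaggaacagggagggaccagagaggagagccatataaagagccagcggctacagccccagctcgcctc
Gbp3, chr3:142559794-142560093, plus strand: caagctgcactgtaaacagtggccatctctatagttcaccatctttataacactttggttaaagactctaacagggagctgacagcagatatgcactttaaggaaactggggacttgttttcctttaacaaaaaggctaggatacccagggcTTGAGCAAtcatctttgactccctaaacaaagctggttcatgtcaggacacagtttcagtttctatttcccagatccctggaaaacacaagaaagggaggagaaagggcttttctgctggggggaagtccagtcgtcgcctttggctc
Il1rn, chr2:24345041-24345340, plus strand: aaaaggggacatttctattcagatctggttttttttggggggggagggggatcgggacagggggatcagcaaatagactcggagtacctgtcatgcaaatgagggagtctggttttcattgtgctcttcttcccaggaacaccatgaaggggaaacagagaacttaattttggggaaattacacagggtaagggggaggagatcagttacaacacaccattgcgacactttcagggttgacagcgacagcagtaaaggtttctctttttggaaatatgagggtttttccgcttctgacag
Saa3, chr7:46715627-46715926, minus strand: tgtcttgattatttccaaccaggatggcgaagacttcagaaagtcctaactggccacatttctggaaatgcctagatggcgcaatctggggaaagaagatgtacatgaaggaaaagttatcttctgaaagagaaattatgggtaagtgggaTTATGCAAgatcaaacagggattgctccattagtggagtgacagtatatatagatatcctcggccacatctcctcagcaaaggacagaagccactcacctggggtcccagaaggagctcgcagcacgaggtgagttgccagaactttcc

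Ptgs2 encodes the inducible cyclooxygenase. Its match began at position −69 from the start site, and the peak summits lay at −60 with IFNg+IL4 and −65 with IFNg. At Il6, a cytokine gene long used to study C/EBP beta, the match began at −128 and both summits lay at −126. At C3, the central complement component, the match began at −45 and both summits lay at −44. At Gbp3, an IFNg-induced guanylate-binding protein, the match began at −98 and both summits lay at −96. At Saa3, an acute-phase serum amyloid, the match began at −99 and the IFNg-only summit lay at −161. Il1rn encodes the interleukin 1 receptor antagonist, and its window holds no match, with a peak that ranked 265 of 6278 with IFNg+IL4 and 16 of 21499 with IFNg.

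Over the 21263 promoter windows of the RefSeq table, 10.2% held TTGCNNAA on either strand. It was in 1 of 2 windows with an IFNg+IL4-only summit, in 124 of 326 with a shared summit (38.04%, interval 32.7 to 43.5) and in 145 of 604 with an IFNg-only summit (24.0%, interval 20.7 to 27.6). The median distance from summit to match was 7.5 bp for shared summits of the IFNg+IL4 list, 4.5 bp for those of the IFNg list and 13.5 bp for IFNg-only summits. The STAT6-type palindrome, TTC and GAA with 4 bases between, was in 11.04% of windows with a shared summit, 5.46% of those with an IFNg-only summit and 6.35% of all. The AP-1 letters TGANTCA were in 8.28%, 8.61% and 6.99% of the same 3 sets, and the interferon-response letters, a pair of GAAA with 2 bases between, in 4.29%, 5.79% and 3.35%. A match describes letters in the window and is not a binding site.

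The IFNg+IL4 list was nested in the IFNg list. Of 6278 IFNg+IL4 peaks, 6118 overlapped an IFNg peak (97.5%, interval 97.0 to 97.8) and 160 did not. Of 21499 IFNg peaks, 6069 had an IFNg+IL4 peak over them and are called kept (28.2%, interval 27.6 to 28.8) and 15430 were IFNg-only. The IFNg+IL4 list was 0.292 times as long as the IFNg list, at nearly the same recovered depth. Depth does not measure the enrichment of a library. At shared peaks the median fold was 7.97 in the IFNg+IL4 list and 20.5 in the IFNg list. Whether the 2 libraries differed in enrichment apart from the treatment was not tested. The overlapping peaks were centred alike: over 6121 overlapping pairs the median distance between summits was 12 bp, and 97.6% of pairs had summits within 100 bp. Few peaks missed by a small gap. An IFNg peak lay within 500 bp of 12 of the 160 IFNg+IL4-only peaks (7.5%), and an IFNg+IL4 peak lay within 500 bp of 239 of the 15430 IFNg-only peaks (1.55%).

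JUNB and IRF1, mapped in the same 2 treatments, had lists of other relative lengths. For JUNB, an AP-1 subunit, the IFNg list held 82.9% of the IFNg+IL4 peaks, and the IFNg+IL4 list 62.0% of the IFNg peaks. The JUNB lists were closer in length, with 5556 peaks with IFNg+IL4 and 7428 with IFNg. Of the 5556 strongest IFNg JUNB peaks, 72.8% were also in the IFNg+IL4 list. The CEBPB share at matched list length was 77.7%, so the 2 factors were close there. For IRF1 the IFNg list held 47.6% of the IFNg+IL4 peaks and the IFNg+IL4 list 95.2% of the IFNg peaks, and the longer list was that with IFNg+IL4 (8226 peaks, against 4189 with IFNg). The relative depth of these libraries was not recovered here.

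Which IFNg peaks were kept followed their strength. The −log10 p, fold and width of a peak are the authors' own values for that peak and were used to describe or rank peaks within a list. Folds from both lists are also printed below for some shared peaks. The median fold of all shared peaks was lower with IFNg+IL4, so a lower fold at 1 gene is not particular to that gene. With each list split into 10 classes of equal size by −log10 p, the weakest IFNg class kept 1.58% of its peaks (interval 1.10 to 2.204), class 5 kept 6.84%, class 7 24.7%, class 8 47.5%, class 9 83.4% and the strongest class 99.3% (interval 98.8 to 99.6). In the other direction 91.2% of the weakest IFNg+IL4 class overlapped an IFNg peak, as did 628 of 628 in the strongest. Among the 6278 strongest IFNg peaks, as many as the IFNg+IL4 list holds, 4879 were kept (77.7%). In the IFNg+IL4 list the 160 IFNg+IL4-only peaks had a median fold enrichment of 6.17 and the shared peaks 7.97. In the IFNg list kept peaks had a median fold of 20.5 and a median width of 436 bp, and IFNg-only peaks a fold of 7.20 and a width of 240 bp.

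**Figure D1:**
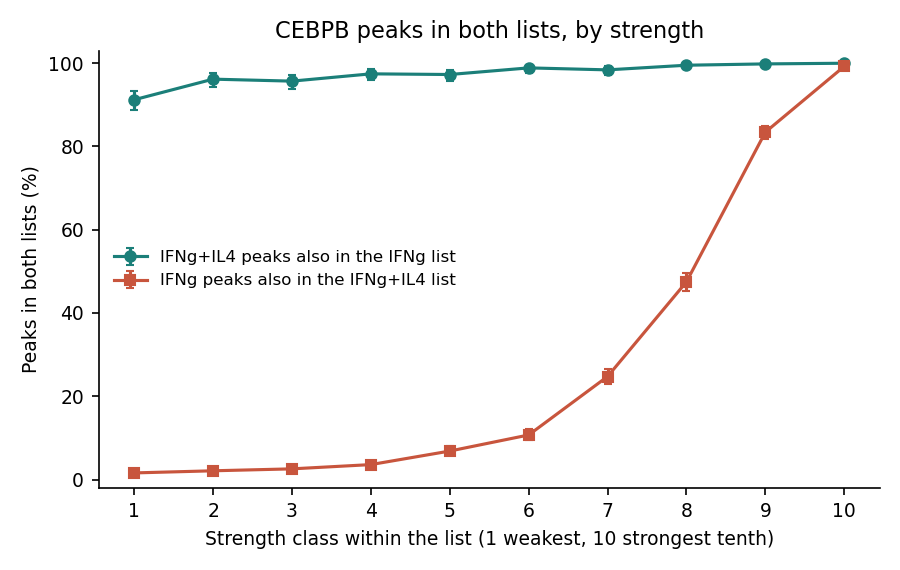
Share of CEBPB peaks found in both lists (y axis, %) by strength class within the list (x axis, 10 classes by −log10 p, 1 the weakest), for IFNg+IL4 peaks (circles) and IFNg peaks (squares), with exact 95% intervals. IFNg+IL4 peaks sit at 91.2% or above in every class, whereas IFNg peaks run from 1.58% in the weakest class to 99.3% in the strongest.

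The exceptions at the strong end were few. Of the 2150 IFNg peaks in the strongest class, 16 were IFNg-only, and 0 of 160 IFNg+IL4-only peaks were in the strongest class of their list. The strongest IFNg-only peak lay inside Lrrc8c, a volume-regulated anion channel subunit, at chr5:105557919-105559032 (mm10), with fold 46.8 and rank 737 of 21499. It was 1114 bp wide, the widest of the class, and lay under peaks of JUNB and IRF1 in both treatments. The second stood 1.54 kb from Klf3, a zinc finger repressor, with fold 38.8. The others of the 8 strongest were nearest to Fth1 (ferritin heavy chain, fold 29.7), Arid5b (24.2), Trim13 (31.1), Cbwd1 (24.4), Lpcat2 (a lysophospholipid acyltransferase, 28.4) and Peli1 (a ubiquitin ligase of Toll-like receptor signalling, 24.5). Of these 8, only those at Lrrc8c, Klf3 and Fth1 were under a STAT6 peak of IFNg+IL4 cells.

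The 8 strongest shared peaks by the IFNg+IL4 list were nearest to Cotl1, Tnfaip8, Rarg, Btbd19, Rad23b, Ccl2, H2aj and Cebpb itself, with fold 33.0 to 51.4 in the IFNg+IL4 list and 37.1 to 76.7 in the IFNg list. All 8 were also CEBPB peaks in untreated cells. The peak nearest to Cebpb lay 69.7 kb from the gene (chr2:167759847-167760410), and that nearest to Ccl2, a monocyte chemokine, 28.6 kb from it.

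Position in the genome separated the 2 large classes little. A summit within 1 kb of a start site was found for 4 of 160 IFNg+IL4-only peaks (2.5%, interval 0.685 to 6.28), 548 of 6069 shared peaks (9.03%, interval 8.32 to 9.78) and 1271 of 15430 IFNg-only peaks (8.24%, interval 7.81 to 8.68). Inside genes but outside promoters lay 49.4% of IFNg+IL4-only, 47.4% of shared and 49.4% of IFNg-only peaks. More than 20 kb from any protein-coding gene lay 28.8%, 22.3% and 22.4% of them. Promoter peaks of the IFNg list were kept at 30.1% and all others at 28.1%, beside 29.6% and 28.1% over all peaks weighted to the same strength classes. The 4 promoter peaks of the IFNg+IL4-only class were at Sft2d2, Tes, Rab15 and Nthl1, named after their values were seen.

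A CEBPB peak already present in untreated macrophages went with being kept. None of the 160 IFNg+IL4-only peaks overlapped an untreated CEBPB peak, with an interval of 0 to 2.28%. Of the shared peaks of the IFNg list 69.4% did (4210 of 6069), and of the IFNg-only peaks 8.41% (1297 of 15430). The 0 of 160 was close to fixed by the class rule, since IFNg+IL4-only peaks lie outside the IFNg list by definition. The untreated list held 5540 peaks, and 5507 IFNg peaks overlapped one of them. Turned round, IFNg peaks over an untreated peak were kept at 76.4% (73.0% over all peaks of the same strength classes), and IFNg peaks without one at 11.6% (12.8%). Those weighted shares include the peaks themselves, which make up most of the 2 strongest classes. Within classes, kept shares with and without an untreated peak were 33.2% against 22.6% in class 7, 54.5% against 41.7% in class 8 and 86.8% against 71.9% in class 9.

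STAT6 was mapped at 2 h, not 4 h, in IFNg+IL4 cells, and its peaks divided the classes further. Of the 160 IFNg+IL4-only CEBPB peaks, 149 overlapped a STAT6 peak (93.1%, interval 88.0 to 96.5). Of the shared peaks of the IFNg+IL4 list 52.2% did (interval 50.9 to 53.4), or 46.0% when shared peaks were weighted to the strength classes of the IFNg+IL4-only ones, and of the IFNg-only peaks 22.7% (interval 22.0 to 23.4). The STAT6 list of cells given IL4 alone covered 94.4% of IFNg+IL4-only, 55.5% of shared and 24.3% of IFNg-only peaks. The STAT6 peaks at IFNg+IL4-only CEBPB peaks were strong ones. Their median −log10 p was 160 in the STAT6 list, whose overall median was 16.6, and 106 of 148 (71.6%) were in STAT6's strongest class. The STAT6 and CEBPB summits were a median of 33 bp apart at IFNg+IL4-only peaks, 39 bp at shared and 50 bp at IFNg-only peaks.

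**Figure D2:**
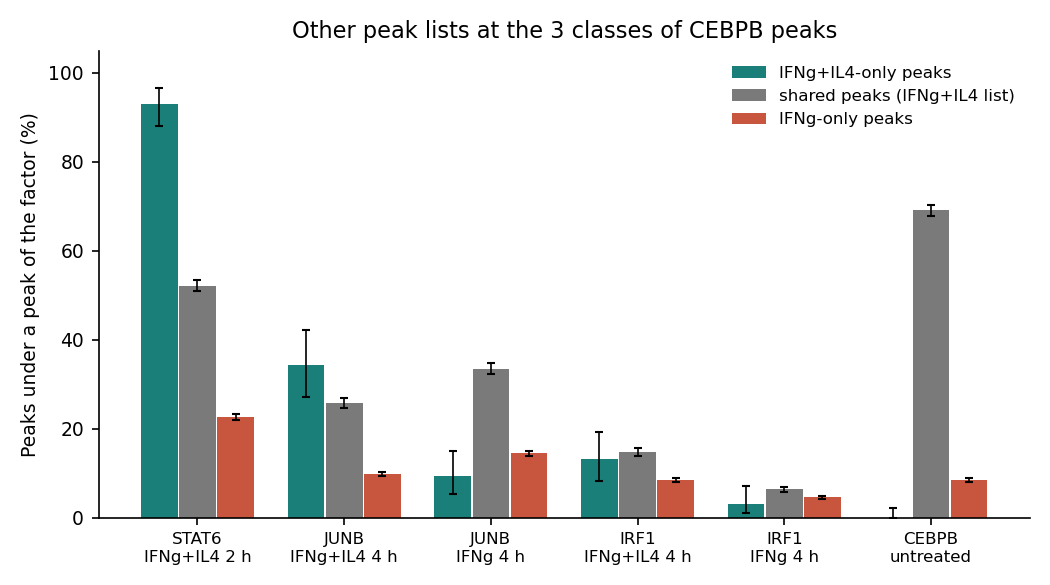
Share of CEBPB peaks (y axis, %, exact 95% intervals) that overlap a peak of 6 other lists (x axis), for IFNg+IL4-only, shared (as listed with IFNg+IL4) and IFNg-only CEBPB peaks. STAT6 covers 93.1% of the IFNg+IL4-only peaks, and untreated CEBPB peaks cover 0% of them but 69.1% of the shared ones. The 0% was close to fixed by the class rule, as the untreated list overlaps the IFNg list widely.

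The 8 strongest IFNg+IL4-only peaks were all under a STAT6 peak. The strongest, at chr11:22693358-22693826, had fold 17.6 and rank 779 of 6278 and was nearest to B3gnt2, a glycosyltransferase 141 kb away. The sixth lay 5.27 kb from Cish, a STAT-induced inhibitor of cytokine signalling, with fold 12.8 (chr9:107307952-107308178). Those nearest to Arf6, Creb5, Klhl25, Ppp2r3a, Pfdn1 and Rimkla had fold 8.04 to 13.4. Creb5 encodes an ATF-family leucine zipper protein and Arf6 a small GTPase of membrane traffic. By number, Zfp608, a zinc finger gene, was nearest to 3 IFNg+IL4-only peaks, and Fyn, a Src-family kinase, Nuak1, Vti1a and Lipn to 2 each.

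IFNg peaks under a STAT6 peak were kept more often than others, as were those under JUNB or IRF1 peaks. Under a STAT6 peak 3222 of 6723 IFNg CEBPB peaks were kept (47.9%, interval 46.7 to 49.1), beside 37.99% over all peaks of the same strength classes. Elsewhere 2847 of 14776 were kept (19.3%, interval 18.6 to 19.9), beside 23.8%. The gap held in each of the 10 strength classes. Kept shares under STAT6 and elsewhere were 5.32% against 0.129% in the weakest class, 27.3% against 5.10% in class 6, 47.9% against 14.2% in class 7, 67.8% against 37.0% in class 8 and 99.7% against 98.8% in the strongest. Seen from STAT6, its strongest class overlapped an IFNg+IL4 CEBPB peak at 35.0% and an IFNg one at 41.7% of 2149 peaks, and its weakest class at 7.73% and 23.4% of 2148.

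**Figure D3:**
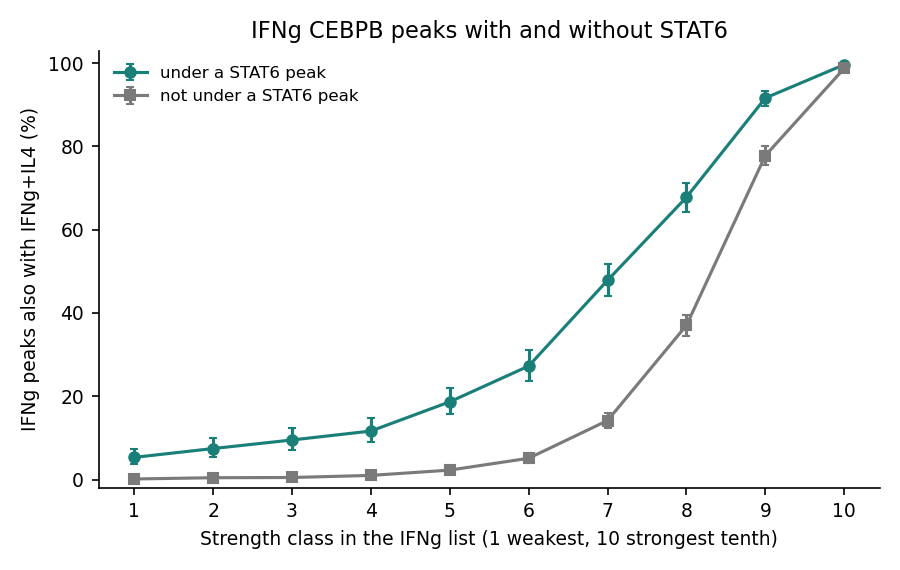
Share of IFNg CEBPB peaks also found with IFNg+IL4 (y axis, %, exact 95% intervals) by strength class in the IFNg list (x axis), for peaks under a STAT6 peak of IFNg+IL4 cells at 2 h (circles) and not under one (squares). Peaks under STAT6 lie above the others in each class, at 47.9% against 14.2% in class 7.

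JUNB and IRF1 were mapped at 4 h, as CEBPB was. IFNg CEBPB peaks under a JUNB peak of IFNg+IL4 cells were kept at 50.9% (38.04% over all peaks of the same strength classes), and the others at 24.4%. By class, kept shares under that JUNB list and elsewhere were 37.5% against 7.03% in class 6 and 53.5% against 19.3% in class 7. Under a JUNB peak of IFNg cells 48.0% were kept (41.2% for the same strength classes) and elsewhere 23.3%. Under an IRF1 peak of IFNg+IL4 cells 42.2% were kept (35.1%) and elsewhere 26.6%. Under an IRF1 peak of IFNg cells 37.1% were kept (34.1%) and elsewhere 27.7% (27.9%), so both lay near the share for their strength classes.

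The cover of the 3 classes by these lists differed. A JUNB peak of IFNg+IL4 cells covered 34.4% of IFNg+IL4-only peaks (interval 27.1 to 42.3), 25.8% of shared and 9.92% of IFNg-only peaks. A JUNB peak of IFNg cells covered 9.38% of IFNg+IL4-only peaks (interval 5.34 to 15.0), 33.5% of shared and 14.5% of IFNg-only peaks. Where an IFNg CEBPB peak lay under an IFNg JUNB peak, a JUNB peak of IFNg+IL4 cells was also there at 69.5% of shared CEBPB peaks (1428 of 2056) and at 62.8% of IFNg-only ones (1400 of 2231). At those 1400 sites JUNB was thus listed in both treatments where CEBPB was listed with IFNg alone. Of all IFNg JUNB peaks 62.0% were also in the JUNB list of IFNg+IL4 cells, so the 62.8% was near the list-wide share. IRF1 peaks of IFNg+IL4 cells covered 13.1%, 14.7% and 8.40% of the 3 classes, and those of IFNg cells 3.13%, 6.37% and 4.56%.

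A peak was counted as near a gene up to 20 kb from summit to gene. Of 21887 protein-coding genes 22.4% had an IFNg+IL4 peak near and 48.2% an IFNg peak. Of the genes with an IFNg peak 53.9% had none with IFNg+IL4, and of those with an IFNg+IL4 peak 0.531% had none with IFNg. Neighbouring genes can share a peak. Gene lists are described by their counts beside these shares, and kept shares beside that of all IFNg peaks weighted to the same strength classes.

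The 36 IFNg response genes kept a share of their peaks close to that of all peaks of like strength. An IFNg+IL4 peak was near 20 of them and an IFNg peak near 35. Of their 106 IFNg peaks 26 were kept (24.5%, interval 16.7 to 33.8), beside 25.3% over all peaks of the same strength classes. Their median strength class was 4 of 10.

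Near Irf1, an IFNg-induced transcription factor gene, there were 0 peaks with IFNg+IL4 and 7 with IFNg. Those 7 were weak, with fold 3.05 to 6.89 and strength classes 1 to 4. Ccl5, a chemokine gene, had 0 with IFNg+IL4 and 6 with IFNg. B2m, the light chain of class I molecules, had 0 with IFNg+IL4 and 5 with IFNg. Socs1, an inhibitor of JAK signalling, had 0 with IFNg+IL4 and 3 with IFNg. The strongest of these 14 peaks, by −log10 p, lay near B2m, with rank 5836 of 21499 and fold 12.7. Among genes with at least 3 IFNg peaks, none was kept at 24.3% of all such genes and at 4 of 14 in the IFNg list. Cxcl10, a chemokine for T cells, had 4 peaks with IFNg+IL4 and 9 with IFNg, of which 4 were kept. Its strongest, with fold 20.6 with IFNg+IL4 and 40.8 with IFNg, stood at the far end of the window, 19.6 kb from the gene in the IFNg list. Its promoter peak, 216 bp from the start site in the IFNg list, was kept with fold 6.34 with IFNg+IL4 and 16 with IFNg. Nlrc5, the activator of MHC class I genes, kept 1 of 8 peaks, Rsad2, an antiviral enzyme, 2 of 7, Gbp5 3 of 7, Cd274 (PD-L1) 1 of 7, Fcgr1, an IgG receptor, 2 of 6 and Cxcl9 2 of 5.

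The 30 IL4 response genes kept about as many peaks as they lost. An IFNg+IL4 peak was near 21 of them and an IFNg peak near 24. Of 91 IFNg peaks 46 were kept (50.5%, interval 39.9 to 61.2), beside 29.7% over all peaks of the same strength classes. Under STAT6, 34 of 55 were kept, and outside it 12 of 36. Of the 52 IFNg+IL4 peaks near these genes 6 were IFNg+IL4-only (11.5%), against 2.55% of the whole list.

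Pdcd1lg2 encodes PD-L2, the second ligand of PD-1. It had 9 peaks with IFNg+IL4 and 11 with IFNg, of which 7 were kept. Its 2 IFNg+IL4-only peaks, inside the gene at chr19:29442542-29442727 and 5.72 kb beyond it, had fold 6.17 and 5.92 and both lay under STAT6. Mrc1, the macrophage mannose receptor, had 4 peaks with IFNg+IL4, 1 of them IFNg+IL4-only and inside the gene (fold 7.19), and 7 with IFNg, of which 3 were kept. Cish had 2 peaks with IFNg+IL4 and 4 with IFNg, and only the one 16 kb away was in both lists. Its IFNg peak nearest the start site, at 519 bp with fold 4.41, was IFNg-only. Irf4, a transcription factor of alternative activation, had 1 IFNg+IL4-only peak 9.12 kb away, under STAT6, and 1 IFNg-only peak 18.7 kb away. Flt1, a VEGF receptor, kept 3 of 4 and had 1 IFNg+IL4-only peak that was not under STAT6.

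Arg1, the arginase of alternative activation, kept both of its peaks and is named after its values were seen. That 3.79 kb from the gene had fold 18.6 with IFNg+IL4 and 42.9 with IFNg, and the other 12.2 with IFNg+IL4, rank 1635 of 6278, and 9.54 with IFNg, rank 10468 of 21499. Both were under STAT6 and untreated CEBPB peaks. Batf3, a leucine zipper factor, and Cdh1 (E-cadherin) kept 3 of 3. All kept was the case for 1.67% of genes with at least 3 IFNg peaks and for 2 of 15 in the IL4 list. Il4ra, the IL4 receptor chain, kept 4 of 8 peaks, Bcl6, a repressor, 3 of 7, Pparg, a nuclear receptor, 3 of 6, Myc 2 of 4 and Kdm6b, a histone demethylase, 1 of 4. Tgm2, a transglutaminase used as a marker of alternative activation, kept 1 of 8, its strongest, with fold 20.2 with IFNg+IL4 and 45.7 with IFNg.

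**Figure D4:**
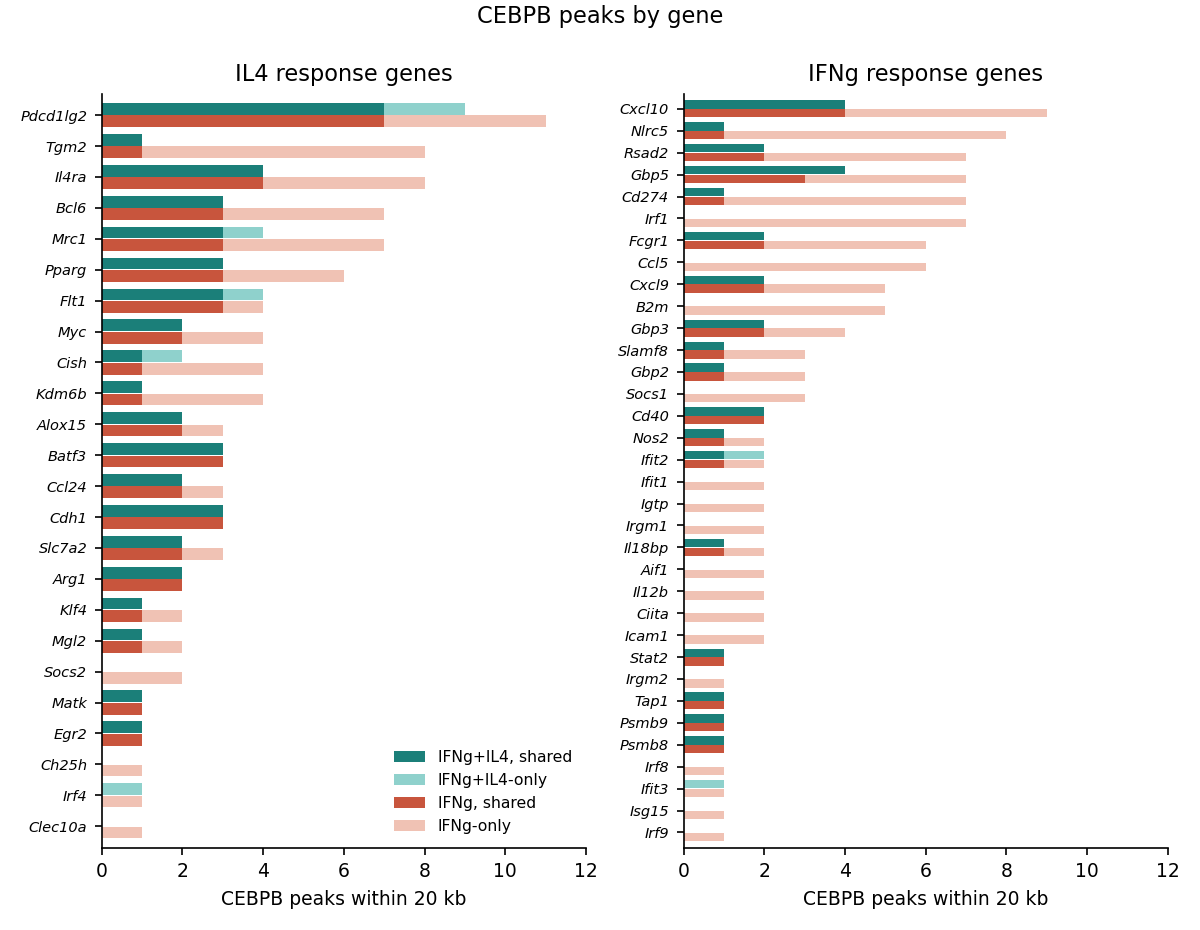
Number of CEBPB peaks within 20 kb (x axis) of each IL4 response gene (left) and IFNg response gene (right) that had any and is reported here. For each gene the upper bar counts IFNg+IL4 peaks and the lower bar IFNg peaks, with dark shades for peaks in both lists and pale shades for those in 1. Pdcd1lg2 has 9 IFNg+IL4 and 11 IFNg peaks, Irf1 0 IFNg+IL4 and 7 IFNg peaks.

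Inflammatory genes kept 39 of 99 IFNg peaks (39.4%), beside 38.9% for the same strength classes; 21 of 30 genes had an IFNg+IL4 peak near and 28 an IFNg peak. Nfkbia, the inhibitor of NF-κB, and Il1b kept 3 of 3. Acod1, the enzyme that makes itaconate, kept 6 of 8. Socs3, an inhibitor of cytokine signalling, kept 1 of 10 and Tnf 1 of 7. Il27, a cytokine subunit, kept none of 6, of which the strongest had fold 28.4. Of the 18 genes of this list with at least 3 IFNg peaks, 1 kept none and 2 kept all. Over all such genes the shares were 24.3% and 1.67%. Ccl3 and Ccl4, adjacent chemokine genes, kept the same 2 peaks.

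The genes of leucine zipper factors, the family of CEBPB and its partners, kept 35 of 72 IFNg peaks (48.6%), beside 42.7% for the same strength classes. Atf3, a stress-induced repressor, kept 4 of 6, Nfil3 4 of 5, Ddit3 (CHOP) 3 of 5, Fos 3 of 4, Nfe2l2 (NRF2) 4 of 7 and Fosl2 1 of 4. Cebpb itself had no peak within 20 kb with IFNg+IL4 and 1 with IFNg (fold 6.05), and Cebpd none with IFNg+IL4 and 1 with IFNg (fold 16.6); these were named after their values were seen. Cebpg kept 1 of 5.

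Genes known as C/EBP targets in myeloid cells kept 32 of 98 IFNg peaks (32.7%), beside 34.6%. C3 kept 4 of 5, Csf3r, the G-CSF receptor, 4 of 5 and Il6ra 2 of 5. Cybb, the NADPH oxidase subunit, kept 1 of 8 and Fpr1, a formyl peptide receptor, 2 of 8. Csf1r, the macrophage growth factor receptor, Cd69 and Orm1 kept none of 3 each. That was 3 of the 19 genes of this list with at least 3 IFNg peaks, beside 24.3% of all such genes. Macrophage identity genes, all 25 of which had an IFNg peak near and 24 an IFNg+IL4 peak, kept 50 of 132 (37.9%), beside 40.3%. Spi1 (PU.1) kept 2 of 6, its strongest with fold 33.9 with IFNg+IL4 and 60.0 with IFNg. Runx1, a haematopoietic factor, kept 3 of 16 and Zeb2 1 of 10.

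Lipid and sterol genes kept 14 of 51 (27.5%), beside 35.3%. Cd36, a scavenger receptor, kept 5 of 10 and Abca1, the cholesterol exporter, 2 of 7. Plin2, a lipid droplet protein, kept none of 5. None was kept at 2 of the 9 genes of this list with at least 3 IFNg peaks, beside 24.3% of all such genes. Of 25 markers of other cell types that a culture could hold, 6 had an IFNg+IL4 peak near and 10 an IFNg peak, and of 25 genes of other organs 3 had an IFNg+IL4 peak and 9 an IFNg peak. Their kept shares rest on 7 of 17 and 5 of 19 peaks.

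**Figure D5:**
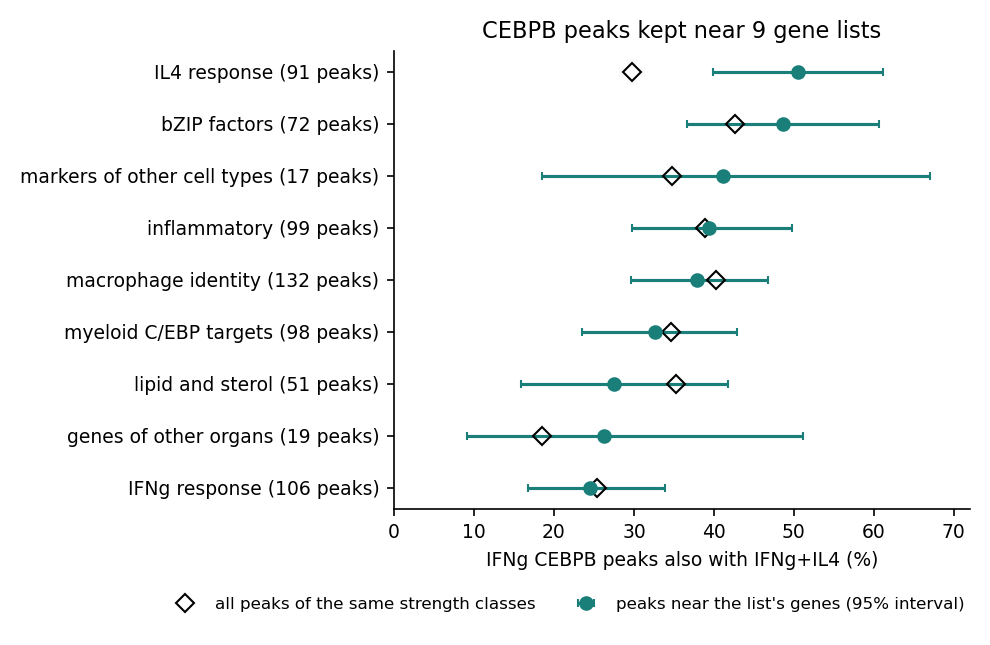
Share of IFNg CEBPB peaks within 20 kb of the genes of 9 lists that were also found with IFNg+IL4 (x axis, %; circles with exact 95% intervals), beside the share over all IFNg peaks weighted to the same strength classes (diamonds). The IL4 response list stands at 50.5% with its diamond at 29.7%, and the diamond of each other list lies within that list's interval.

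Over the 243 listed genes, an IFNg+IL4-only peak was near Pdcd1lg2, Mrc1, Flt1, Cish, Irf4, Ifit2, Ifit3 and Atf5, and near 0.676% of all protein-coding genes. The antiviral genes Ifit2 and Ifit3 shared the same peak, which lay inside Ifit2 under STAT6. At every one of these 8 genes the IFNg list also held a peak within 20 kb.

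The genes nearest to most IFNg-only peaks kept peaks too. Klf6, a zinc finger factor, was nearest to 13 peaks with IFNg+IL4 and 51 with IFNg, 41 of them IFNg-only. With IFNg+IL4, Lpp was nearest to 17 peaks, Zeb2 to 13, Runx1 to 7, Adgrl2 to 4, Cited2 to 16, Foxp1 to 6 and Eea1 to 7. With IFNg the same genes were nearest to 51 (Lpp), 42 (Zeb2), 32 (Runx1), 28 (Adgrl2), 40 (Cited2), 28 (Foxp1) and 27 (Eea1) peaks. Cited2 and Lpp also led by shared peaks, with 16 each, followed by Gm826, Zeb2 and Irf2 with 13, Myc with 12, and Prdm1 and Klf6 with 11. Of the 8136 genes nearest to an IFNg peak, 32.0% had shared and IFNg-only peaks, 54.5% IFNg-only peaks alone and 13.5% shared peaks alone.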

How the data were processed

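The CEBPB libraries were 2 of the 17 in the series, 1 per group, grouped by the labels' antibody, treatment and time. Per the submitters' processing notes the tools were Bowtie2 2.2.6 for alignment to mm10 (GRCm38) and MACS2 2.1.0.20150731 for peaks; beyond a q threshold and a bandwidth in the names of the deposited lists, their settings were not given in the sources used here. Each list comes from 1 library. The deposited lists have 10 columns and no header. The deposited fold is a ratio of signal to control at the summit, the deposited −log10 p and q values are per peak, the deposited score is 10 times the −log10 q, and the last deposited column is the summit offset. All listed CEBPB peaks had a −log10 q of at least 2.

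Peaks were intersected with Python 3.11.15 and pandas 2.3.3, and intervals computed with scipy 1.17.1. The overlap functions and the recovery of depth, which solves pileup and background from the smallest steps of −log10 p and fold in up to 2000 peaks per list, were tested on simulated data. Genes came from a RefSeq table of GRCm38.p6 with 21887 protein-coding genes, 79.9% of them with a start site in the promoter table. Chromosome 18 genes had none. Peaks there stay in the totals of the promoter shares but are never counted as promoter peaks. Motifs were searched only in those promoter windows, not across peaks, since no genome sequence was used here. All 243 listed genes matched; a few results are not reported here.

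Named genes were the nearest genes of the 8 strongest peaks of each class, those nearest to most peaks, up to 10 genes per list with most IFNg peaks, and list genes with at least 3 IFNg peaks of which none or all were kept. The members, lists and rules were chosen with earlier results of these data known. Alternatives were cut-offs on −log10 q, other overlap rules, merging, list length, gene distance and promoter width. Overlaps with the STAT6 list of IL4 alone and the alternatives on STAT6 and gene span ends were added after the data were seen.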

Additional observations from a re-analysis of the deposited data

How the results depend on the processing

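Of 85 alternative values 51 stayed inside the counting interval of the main value and 34 fell outside it. The 51 include the ratios of list lengths, which have no interval and were judged by a fold limit. They also include the values without removal of peaks over the input, which could not change because 0 were removed. No result has replicates. No paired analysis was possible because each group is 1 library. With an overlap of 50% of both peaks, the IFNg list held 61.8% of IFNg+IL4 peaks and 18.05% of IFNg peaks stayed; median widths of shared peaks were 231 bp with IFNg+IL4 and 436 bp with IFNg; kept shares near genes were then 16.04% (IFNg response), 37.4% (IL4 response), 34.7% (leucine zipper factors), 20.2% (inflammatory), 26.5% (macrophage identity), 21.4% (myeloid C/EBP targets) and 5.26% (other organs), and promoter shares 7.21% of IFNg+IL4-only and 9.82% of shared peaks. With the IFNg list cut to the length of the IFNg+IL4 list, it held 78.5% of IFNg+IL4 peaks and 77.7% of its peaks were kept, near genes 75.9% (IFNg response), 92.9% (IL4 response), 93.3% (leucine zipper factors), 83.7% (inflammatory), 70.0% (lipid and sterol), 75.4% (macrophage identity), 85.7% (other cell types) and 76.5% (myeloid C/EBP targets); it drops weak peaks only. At a −log10 q of at least 10 the shares were 98.1% of IFNg+IL4 and 25.8% of IFNg peaks, with peaks within 500 bp merged 28.9% of IFNg peaks were kept, and with summits within 100 bp 95.1% of IFNg+IL4 peaks were shared. With start sites within 2.5 kb, promoters held 13.7% of shared and 13.3% of IFNg-only peaks, and with gene span ends added as starts 11.4% of shared and 10.2% of IFNg-only peaks. With STAT6 and CEBPB summits within 100 bp, 80.6% of IFNg+IL4-only peaks were at STAT6, and 49.8% of IFNg peaks there and 21.4% elsewhere were kept; with STAT6 peaks of −log10 q at least 10, 52.3% there and 21.4% elsewhere. Without replicates or read counts, a peak missing from a list is under the caller's threshold and not shown to be absent, and the spread between cultures is unknown.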

Other observations

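By chromosome, the share of IFNg CEBPB peaks kept with IFNg+IL4 lay between 25.6% (chromosome 9) and 31.5% (chromosome 2) on the autosomes. On chromosome X it was 110 of 515 (21.4%, interval 17.9 to 25.2). These chromosome shares were not weighted to strength classes. On chromosome 19, 214 of 226 IFNg+IL4 peaks overlapped an IFNg peak (94.7%, interval 90.9 to 97.2). That was the lowest share of any chromosome, beside 97.5% over the whole list.

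The 160 IFNg+IL4-only peaks were spread over 147 nearest genes, 135 of which had 1 such peak. Of these 160 peaks, 11 were not under a STAT6 peak of IFNg+IL4 cells. They had ranks from 4113 to 6218 of 6278 in the IFNg+IL4 list, with the strongest at Flt1.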
